A study of Mus musculus with 12 samples.

Results

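The cytosolic ribosomal protein genes were followed in bone marrow (BM) RNA from WT mice and from mice carrying Flt3-ITD with loss of 1 copy of Dnmt3a, Tet2 or both. Members were taken by gene symbol alone: symbols that begin with Rpl or Rps and a number, with Rplp0, Rplp1, Rplp2 and Rpsa. Of 94 symbols matched in this way, 8 Rps6k kinases and 3 pseudogenes were dropped, which left 83 genes of the 12199 in the count table. By symbol, 49 belonged to the large subunit and 34 to the small subunit. The rule also took Rps19bp1, whose product binds Rps19 and is not itself a ribosomal protein. The rule uses symbols and no measured value.

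RNA was sequenced from 3 WT, 3 DF, 3 TF and 2 TFD libraries of C57BL/6 mice, and TFD replicate 3 was not analysed here. DF mice were Dnmt3aFlox/+ with MxCre and Flt3 ITD/+, TF mice were Tet2+/- with Flt3ITD/+, and TFD mice combined the 3 lesions. The methods state that poly(I:C) was given to every experimental animal, WT included, which switches on the interferon-driven MxCre, so that 1 copy of Dnmt3a was lost in the cells that answered the treatment. Tet2 loss and Flt3-ITD were in the germ line. RNA was depleted of globin transcripts before the stranded total RNA libraries were made, and totals ranged from 8274153 to 15900904 counts, with between 12155 and 12195 genes detected. The labels name no age. WT replicate 3, TF replicate 3 and TFD replicate 2 had between 30976 and 42152 counts of Xist, the RNA that coats the silenced X chromosome of female cells, against at most 538 in the other 8 libraries.

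The ribosome is built of a large and a small subunit, each a core of ribosomal RNA coated with proteins that occur, with few exceptions, in a single copy per particle. Their mRNAs are short, abundant and begin with a run of pyrimidines, the terminal oligopyrimidine or TOP element, through which mTORC1 and Larp1 set their translation and stability. Blood formation depends closely on them: loss of a single copy of genes such as Rps19 or Rps14 causes failure of red cell production in people.

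RefSeq lists promoters for 62 of the 83 genes, 73 promoters in all on GRCm38.p6, and the windows around the start site are shown for 8 genes because the pyrimidine run is the sequence feature that the group is known for. Each window holds 25 bases before the listed start and 25 from it onward, 5′ to 3′ on the gene's strand, with the longest run of C and T within these bases in capitals. Rpl39 lies at chrX:37085198-37085247 on the minus strand, Rps26 at chr10:128626482-128626531 on the minus strand, Rps9 at chr7:3704016-3704065 on the plus strand, Rplp2 at chr7:141447626-141447675 on the plus strand, Rps6 at chr4:86857343-86857392 on the minus strand, Rpl5 at chr5:107900503-107900552 on the plus strand, Rpl10 at chrX:74270791-74270840 on the plus strand and Rpl41 at chr10:128549144-128549193 on the minus strand. They include the gene with the largest rise (Rpl39), 2 of the genes higher in TFD (Rps9 and Rplp2) a gene that was not called in any comparison (Rpl5) and 2 genes with short runs here (Rpl10 and Rpl41, of 4 and 3 bases).
Rpl39: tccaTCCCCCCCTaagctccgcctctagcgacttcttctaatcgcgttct
Rps26: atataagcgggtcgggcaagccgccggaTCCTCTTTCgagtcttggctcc
Rps9: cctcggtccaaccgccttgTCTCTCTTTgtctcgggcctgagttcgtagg
Rplp2: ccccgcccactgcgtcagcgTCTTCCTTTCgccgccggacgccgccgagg
Rps6: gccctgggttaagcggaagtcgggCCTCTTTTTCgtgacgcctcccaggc
Rpl5: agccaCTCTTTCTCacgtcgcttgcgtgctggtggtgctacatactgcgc
Rpl10: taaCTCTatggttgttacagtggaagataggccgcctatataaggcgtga
Rpl41: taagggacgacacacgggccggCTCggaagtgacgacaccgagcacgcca

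Within 40 bases before to 50 bases after the listed start, the longest pyrimidine run had a median of 10 bases in the ribosomal protein promoters and 6 in all 32851 promoters. A run of at least 8 was present in 55 of 73 (75.3%), against 32.5% of all promoters and 29.6% of the promoters of tested genes outside the group. In Rpl39 a run of 14, and in Rpl10 and Rpl41 a run of 10, lay at the far end of this window, past the bases shown. The capitals printed for Rpl39, Rpl5, Rpl10 and Rpl41 lie wholly before the listed start, outside the transcript as listed. The listed start itself was a C followed by 4 pyrimidines in 13 of 73 (17.8%), against 2.51% of all promoters. The letters CTTCCG or their complement CGGAAG, which ETS factors are known to bind, stood in 61.6% of the 300-base ribosomal protein promoters, in 16.9% of all promoters and in 30.8% of those of the other tested genes, counting both strands. These are matches of letters. Of the 49 genes with a pyrimidine run of at least 8 in any promoter, 41 were called higher in TF relative to WT by the test described next. Of the 13 with shorter runs 8 were. The median log2 fold change in TF was 0.56 with a run of at least 8 and 0.58 with shorter runs.

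Together the 83 genes gave a larger share of the counts in the TF libraries than in any WT library. They took 3.27%, 3.12% and 3.69% of the counts in WT replicates 1 to 3. The DF libraries gave 4.33%, 4.11% and 3.42%, the TF libraries 4.93%, 5.002% and 4.65%, and the TFD libraries 3.94% and 3.35%. All TF libraries lay above all others, whereas DF replicate 3 and TFD replicate 2 fell within the WT range. The means were 3.36% ± 0.296 (SD, n = 3) in WT, 3.95% ± 0.472 (SD, n = 3) in DF, 4.86% ± 0.183 (SD, n = 3) in TF and 3.64% ± 0.415 (SD, n = 2) in TFD. Both subunits contributed: large subunit genes took a mean of 1.86% in WT and 2.66% in TF, and small subunit genes 1.501% and 2.20%. In bulk RNA of this kind, fewer cells of a type and less RNA per cell cannot be told apart.

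**Figure D1:**
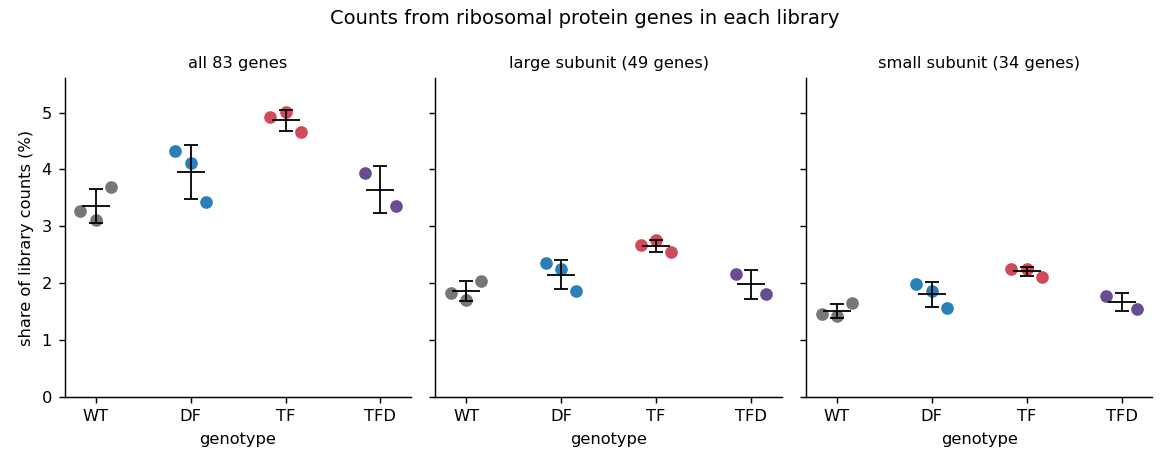
Share of each library's counts (%, vertical axis) from all 83 genes, the 49 large subunit and the 34 small subunit genes, by genotype. Points are libraries, and the bar with whiskers is the mean and SD; the TF points, between 4.65% and 5.002% for all genes, lie above every other library.

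Each gene was then tested between genotypes on the raw counts with edgeR's quasi-likelihood test, and a gene was called at a Benjamini-Hochberg adjusted p under 0.05 over the 12175 genes that passed the filter on low counts, which all 83 passed. Values are log2 fold changes and, for single libraries, log2 CPM, counts scaled to the library total. Nothing in the labels beyond the numbered titles says that each library came from a separate mouse, so p-values measure the spread between these libraries. The Xist counts place both sexes within WT, TF and TFD, so that each of these groups held RNA from more than a single mouse. The paper states that its data points stand for individual mice and does not name the RNA libraries there.

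In TF relative to WT, 65 of the 83 ribosomal protein genes were called higher and 1 lower, where 19.0% of all tested genes were called higher and 15.6% lower. Their median log2 fold change was 0.56, against 0.02 over all tested genes, and 82 of 83 were positive. In 74 of the 83, every TF library lay above every WT library, which held for 26.1% of all genes. The calls were spread over both subunits, with 39 of 49 large subunit genes (median 0.55) and 26 of 34 small subunit genes (median 0.58). Leaving out a library in turn, with at least 2 kept in each genotype, gave between 50 and 65 higher calls, against 13.9% to 19.0% of all genes. With gene length taken out, as described with the length values, 36 were called higher with a median of 0.27, and 41 with a median of 0.28 when the curve was drawn from the other genes alone.

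In DF relative to WT, 35 were called higher and 1 lower, where 21.0% of all genes were called higher and 16.6% lower. The median was 0.34, against 0.05 over all genes, 81 of 83 were positive, and in 51 every DF library lay above every WT library, which held for 28.8% of all genes. By subunit 19 of 49 large and 16 of 34 small subunit genes were called higher. The count rested on single libraries: it was 9 without DF replicate 1, 16 without DF replicate 2, 14 without WT replicate 1 and 14 without WT replicate 2, and 38 without DF replicate 3, and it was 17 with library totals and 23 with RLE factors in place of TMM factors. With single libraries left out in that order, the share of all genes called higher was 14.8%, 16.2%, 16.4%, 16.4% and 17.3%, and it was 15.8% with library totals and 18.3% with RLE factors. DESeq2 called 39 members higher and limma 41, against 18.5% and 21.5% of all genes. With gene length taken out, as described with the length values, 13 were called higher, a smaller share than the 22.1% of all genes.

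In TFD relative to WT, 3 were called higher and 0 lower, where 14.7% of all genes were called higher and 11.6% lower. The median was 0.09, against 0.01 over all genes, with 64 of 83 positive, and in 12 both TFD libraries lay above every WT library, which held for 26.0% of all genes. At an unadjusted p under 0.05 edgeR gave 6 genes with a positive fold change, against 20.5% of all genes, and DESeq2 called 3 higher and 1 lower, Rps4l. The 2 TFD libraries differed: relative to the WT mean, the median gene was 0.22 higher in TFD replicate 1 and 0.03 lower in TFD replicate 2 on the log2 scale. The number called higher was 1 without WT replicate 2 and 0 when only the WT and TFD libraries were fitted (11.5% and 12.2% of all genes). The members' median fold change was -0.04 without the first TFD library and 0.21 without the second. It was 0.30 in the libraries under 10000 Xist counts, which leave TFD replicate 1 alone in its group. Where 1 TFD library was left, it was assumed to vary as the other groups do.

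**Figure D2:**
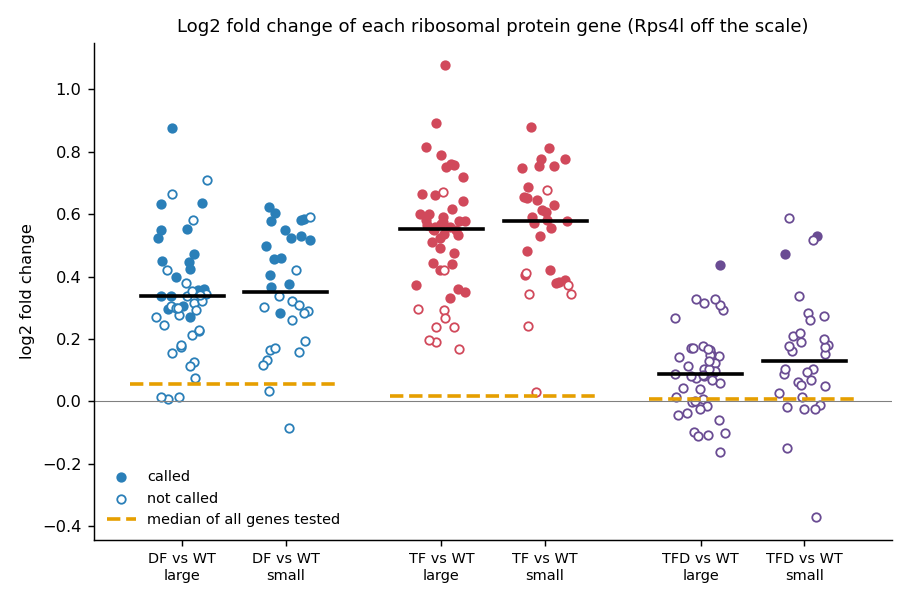
Log2 fold change of each gene (vertical axis) in DF, TF and TFD relative to WT, with large and small subunit genes side by side; filled points were called and open points were not, black bars are medians over the subunit's genes and dashed lines medians over all tested genes. Rps4l, which lies below the axis, is left out of the points. Over both subunits the members' medians are 0.34, 0.56 and 0.09, in the order DF, TF and TFD.

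The mutant genotypes were also compared with each other directly. In DF relative to TF, 77 of 83 genes had a negative fold change, with a median of -0.21 against 0.02 over all genes, and in 44 every DF library lay below every TF library (12.1% of all genes). None was called by edgeR, where 1.67% of all genes were called higher and 4.27% lower, while 12 were negative at an unadjusted p under 0.05 (10.3% of all genes) and DESeq2 called 4 lower, among them Rpl10a, Rpl21 and Rplp0, against 6.1% of all genes. In TF relative to TFD, 81 of 83 were positive with a median of 0.43, and every TF library lay above both TFD libraries in 74 (12.0% of all genes). Again 0 were called by edgeR, which called 0.00821% of all genes higher, but 57 were positive at an unadjusted p under 0.05 (5.7% of all genes) and DESeq2 called 31 higher, against 0.862% of all genes. In DF relative to TFD, 76 were positive with a median of 0.25, and every DF library lay above both TFD libraries in 22 (15.0% of all genes). Here 0 were called by edgeR or DESeq2, where edgeR called 0.0% of all genes, and 19 were positive at an unadjusted p under 0.05 (7.24% of all genes). Without TFD replicate 1, edgeR called 14 of the 83 higher in TF (0.493% of all genes) and 8 higher in DF (1.95% of all genes) relative to TFD, with TFD replicate 2 then alone in its group and assumed to vary as the other groups do.

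Rpl39, an X-linked gene for a small protein at the exit tunnel of the large subunit, had the largest rise in DF and in TF. Its log2 CPM was 7.72, 7.69 and 7.91 in WT, 8.87, 8.62 and 8.43 in DF, 8.96, 8.80 and 8.80 in TF, and 8.35 and 7.81 in TFD. All DF and TF libraries were above all WT libraries, and TFD replicate 2 was within the WT range. The log2 fold change was 0.88 ± 0.15 (SE, edgeR adjusted p = 0.000731) in DF and 1.08 ± 0.15 (adjusted p = 0.000225) in TF, and 0.33 ± 0.17 (adjusted p = 0.166) in TFD. The gene spans chrX:37082520-37085184 on GRCm38.

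The other large subunit genes with the largest changes were Rpl31, Rpl10 and Rpl36. Rpl31, a protein near the rim of the exit tunnel, stood at 8.14, 7.88 and 8.22 in WT, 8.88, 8.74 and 8.52 in DF, 8.96, 8.95 and 8.79 in TF, and 8.52 and 7.74 in TFD. It was called in DF (0.63 ± 0.18, edgeR adjusted p = 0.0131) and TF (0.81 ± 0.18, adjusted p = 0.00363), and its TFD libraries lay above and below the WT range. Rpl10, which joins the large subunit late and completes its active site, rose by 0.63 ± 0.13 in DF and 0.79 ± 0.13 in TF (edgeR adjusted p = 0.00229 and 0.000671). Rpl36 was called only in TF among the comparisons with WT (0.89 ± 0.23, adjusted p = 0.00942), and its value in DF was 0.58 ± 0.23 (adjusted p = 0.0603).

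Among small subunit genes, Rps26 and Rps14 were among those with the largest changes. Rps26, which lies where mRNA leaves the ribosome, stood at 7.70, 7.20 and 7.61 in WT, 8.28, 8.17 and 7.96 in DF, 8.36, 8.57 and 8.25 in TF, and 8.09 and 7.42 in TFD. All DF and TF libraries were above WT, for log2 fold changes of 0.62 ± 0.17 (edgeR adjusted p = 0.014) and 0.88 ± 0.17 (adjusted p = 0.00225). Rps14, the gene of the red cell failure of the 5q- syndrome, rose by 0.60 ± 0.14 in DF and 0.75 ± 0.14 in TF (edgeR adjusted p = 0.0051 and 0.00153), and its value in TFD was 0.34 ± 0.16 (adjusted p = 0.129). The smallest rises called were Rpl37, Rps10, Rpl10a and Rpl19 in DF, between 0.27 and 0.31, and Rpl21, Rpl41, Rpl7 and Rpl3 in TF, between 0.33 and 0.37. Once gene length was taken out as described with the length values, Rpl41 in TF stood at -0.047.

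Rps9 and Rplp2, both on chromosome 7, were among the 3 genes called in TFD. Rps9, a protein that binds early during small subunit assembly, stood at 9.13, 8.89 and 9.16 in WT, 9.76, 9.48 and 9.43 in DF, 9.81, 9.76 and 9.70 in TF, and 9.64 and 9.55 in TFD. All 8 mutant libraries were above all WT libraries, with log2 fold changes of 0.50 ± 0.12 in DF, 0.69 ± 0.12 in TF and 0.53 ± 0.14 in TFD (edgeR adjusted p = 0.0076, 0.00132 and 0.013). Rplp2 stood at 7.90, 7.49 and 7.98 in WT and 8.30 and 8.18 in TFD, with 0.44 ± 0.14 (edgeR adjusted p = 0.0383) in TFD and 0.51 ± 0.13 (adjusted p = 0.00895) in TF, and 0.34 ± 0.13 (adjusted p = 0.0521) in DF.

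The stalk of the large subunit, Rplp0 with Rplp1 and Rplp2, recruits the factors that drive elongation, and its genes differed in their calls. Rplp0 was called in TF (0.60 ± 0.12, edgeR adjusted p = 0.00274) and stood at 0.32 ± 0.12 in DF (adjusted p = 0.0567). Rplp1 was not called in any comparison with WT, with 0.01 ± 0.13 in DF, 0.27 ± 0.13 in TF and -0.16 ± 0.15 in TFD (edgeR adjusted p = 0.942, 0.129 and 0.453). Rpl5 and Rpl11, which hold the smallest ribosomal RNA of the large subunit and bind Mdm2 when free, differed in the same way, although no gene was tested against another. Rpl5 stood at 8.91, 9.36 and 9.41 in WT, 9.30, 9.32 and 9.12 in DF, 9.45, 9.45 and 9.32 in TF, and 9.10 and 9.52 in TFD, so that the groups overlapped, and it was not called (0.01 ± 0.15 in DF and 0.17 ± 0.15 in TF, edgeR adjusted p = 0.977 and 0.408). Rpl11 was called in DF (0.36 ± 0.12, adjusted p = 0.0307) and TF (0.58 ± 0.12, adjusted p = 0.00267).

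Genes whose single-copy loss causes inherited or acquired red cell failure in people were 20 of the tested genes. Of these, 15 were called higher in DF, 17 in TF and 0 in TFD, with medians of 0.45, 0.64 and 0.14. All 83 members gave 35, 65 and 3 (42.2%, 78.3% and 3.61%), and all genes 21.0%, 19.0% and 14.7%. Rps19, the gene mutated most often in Diamond-Blackfan anemia, rose by 0.40 ± 0.12 in DF and 0.63 ± 0.12 in TF (edgeR adjusted p = 0.0222 and 0.00218) and had 0.10 ± 0.14 in TFD (adjusted p = 0.623). Rpl5, Rpl15 and Rps27 of the list were not called in any genotype. In TFD, 2 of the 20 had a positive fold change at an unadjusted p under 0.05, against 20.5% of all genes.

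The 4 X-linked genes, Rpl10, Rpl36a, Rpl39 and Rps4x, were all called in TF, and Rpl10 and Rpl39 also in DF. Rps4x, a small subunit protein, rose by 0.65 ± 0.13 in TF (edgeR adjusted p = 0.00261) and stood at 0.34 ± 0.13 in DF (adjusted p = 0.0607). Because Xist differed within groups, the fit was repeated with a term for the 3 libraries with high Xist: 27 members were then called higher in DF, 66 in TF and 3 in TFD. That fit called 19.2%, 20.3% and 16.2% of all genes higher, in the same order. With the other 8 libraries alone, 42 members were called higher in DF and 68 in TF. The matching shares of all genes were 18.3% and 18.2%. TFD replicate 1 was then alone in its group, and the members' median log2 fold change for TFD was 0.30. Rpsa, the small subunit protein also known as the laminin receptor, Rps6, the substrate of the S6 kinases, and Rps27a, which is made as a fusion with ubiquitin, had smaller values: in TF they stood at 0.38 ± 0.12 (edgeR adjusted p = 0.0314), 0.39 ± 0.12 (adjusted p = 0.02) and 0.37 ± 0.17 (adjusted p = 0.106).

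**Figure D3:**
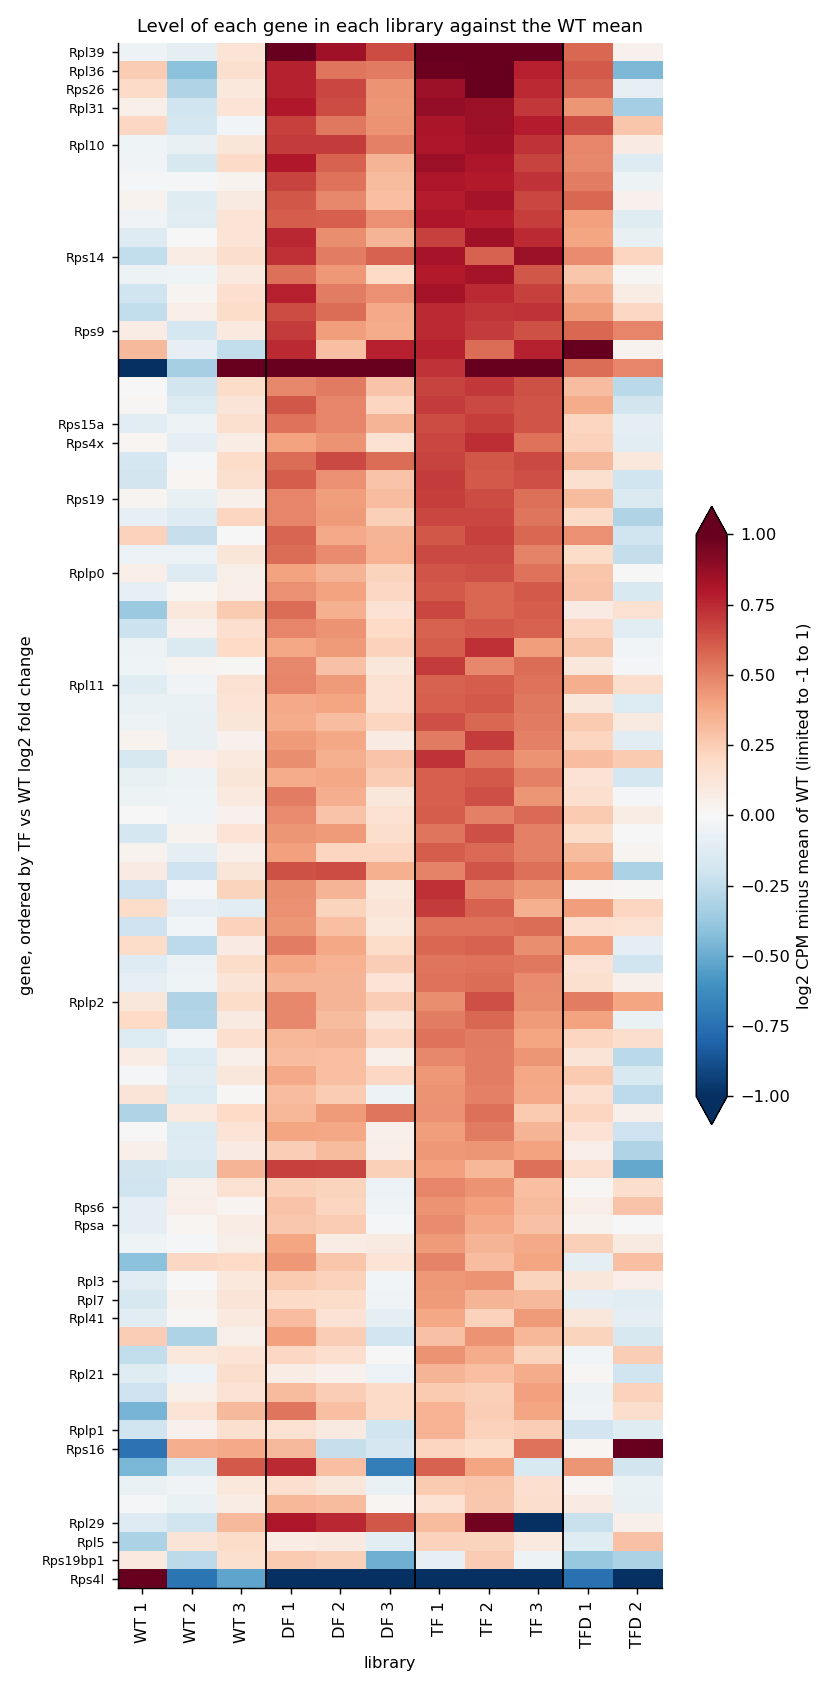
Log2 CPM of each gene (rows, ordered by the TF fold change) in each library (columns) minus the mean of the 3 WT libraries, with the color limited to -1 and 1; the names of some of the genes described in the text are given at the rows. Most rows are red across TF, paler in DF replicate 3 than in DF replicates 1 and 2, and near 0 in TFD replicate 2; the last row, Rps4l, is blue in every mutant library.

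Of the 83 genes, 16 were called in no comparison with WT. Rpl4, Rps2, Rps3a1, Rps16 and Rpl29 were among the abundant ones. Rpl29 had the widest spread: its log2 CPM was 6.46, 6.39 and 6.92 in WT, 7.40, 7.34 and 7.21 in DF, and 6.91, 7.55 and 4.70 in TF, TF replicate 3 lying far below the others, and the fold change was 0.19 ± 0.45 in TF (edgeR adjusted p = 0.769). Rps16 stood at 5.78 in WT replicate 1 and at 6.88 and 6.90 in the other WT libraries, and at 7.54 in TFD replicate 2. Rps19bp1 stayed near 3 on this scale and had 0.03 ± 0.21 in DF and in TF (edgeR adjusted p = 0.915 and 0.921).

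The 1 gene called lower was Rps4l, an autosomal intronless copy of Rps4x on chromosome 6. It had 132, 22 and 35 counts in the WT libraries, 18, 23 and 22 in DF, 8, 11 and 13 in TF, and 43 and 9 in TFD. WT replicate 1 stood apart from the other WT libraries, and without it the DF value was -0.84. With all libraries the log2 fold change was -1.75 ± 0.54 in DF and -2.63 ± 0.58 in TF (edgeR adjusted p = 0.022 and 0.00417), and -1.64 ± 0.60 in TFD (adjusted p = 0.063). The call in DF was lost without WT replicate 1 and without DF replicate 1 or 2, whereas the call in TF was kept with each library left out.

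Paralogs were compared as the log2 ratio of copy to canonical gene, per base of length, within a library, which does not depend on scaling. Rps4l over Rps4x was -7.74 ± 1.06 (SD, n = 3) in WT and -9.92 ± 0.824 (SD, n = 8) in the mutants, all 8 below all WT libraries (exact two-sided permutation test, p = 0.0121, the smallest that the 165 splits can give, adjusted over 5 pairs p = 0.0606). Rpl22, which is known to repress its copy Rpl22l1, was compared likewise: Rpl22l1 over Rpl22 was 0.64 ± 0.079 (SD, n = 3) in WT, 0.62 ± 0.050 (SD, n = 3) in DF, 0.35 ± 0.066 (SD, n = 3) in TF and 0.59 ± 0.098 (SD, n = 2) in TFD. The 3 TF libraries lay at 0.32, 0.30 and 0.42, below the lowest of the others, and the test of all mutants against WT gave -0.12 (exact permutation p = 0.206, adjusted p = 0.515). Rpl36al over Rpl36a, Rps27l over Rps27 and Rpl7l1 over Rpl7 differed between mutants and WT by 0.10, -0.29 and 0.0043, with adjusted p of 0.697, 0.525 and 0.921 in the same exact permutation test. As a single gene, Rps27l was called in DF (0.52 ± 0.19, edgeR adjusted p = 0.0439) and not in TF (0.41 ± 0.19, adjusted p = 0.108), and Rpl36al was called in DF (0.55 ± 0.16, adjusted p = 0.0187) and TF (0.55 ± 0.16, adjusted p = 0.0197).

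Ribosomal protein genes are short, so their fold changes were set beside gene length, as the deposited length column gives it. Their median length was 710 bases, against 2890 over all genes, and 82 of 83 were shorter than the median gene. Short genes outside the group were also higher in DF and TF. Among genes of at most 1200 bases, the 1362 others had a median log2 fold change of 0.28 in DF and 0.24 in TF, and the 68 members 0.34 and 0.57. The members called higher were 45.6% against 27.1% of the short others in DF, and 79.4% against 24.4% in TF. In TFD the short others had a median of 0.04 and the short members 0.10. Genes over 5000 bases had medians of -0.13, -0.15 and -0.09 in DF, TF and TFD. Between DF and TF, which share the trend, the short others had a median of 0.03 and the short members -0.21.

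When a loess curve on length was taken out of each library before the test, 13 members were called higher in DF (median 0.15), 36 in TF (median 0.27) and 3 in TFD (median 0.09), where 22.1%, 17.3% and 15.0% of all genes were called higher in the same order. In DF and TFD the share of the 83 members called was then below that of all genes, and in TF it was above. The median between genotypes also moved, from -0.21 to -0.13 for DF relative to TF, from 0.43 to 0.18 for TF relative to TFD and from 0.25 to 0.08 for DF relative to TFD. With the curve drawn from the other genes alone, the counts were 14, 41 and 4, against 22.2%, 17.4% and 15.0% of all genes. Under both curves 13 genes were called in DF and in TF alike, among them Rpl10, Rpl31, Rpl39, Rps9, Rps14 and Rps15a. Rps15a is the longest of the group at 5134 bases as deposited, and rose by 0.45 ± 0.12 in DF and 0.66 ± 0.12 in TF (edgeR adjusted p = 0.0115 and 0.00158). Its deposited length sets it beside genes over 5000 bases, whose medians were -0.13 in DF and -0.15 in TF. Its calls under both curves are therefore no test of the trend in short genes.

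**Figure D4:**
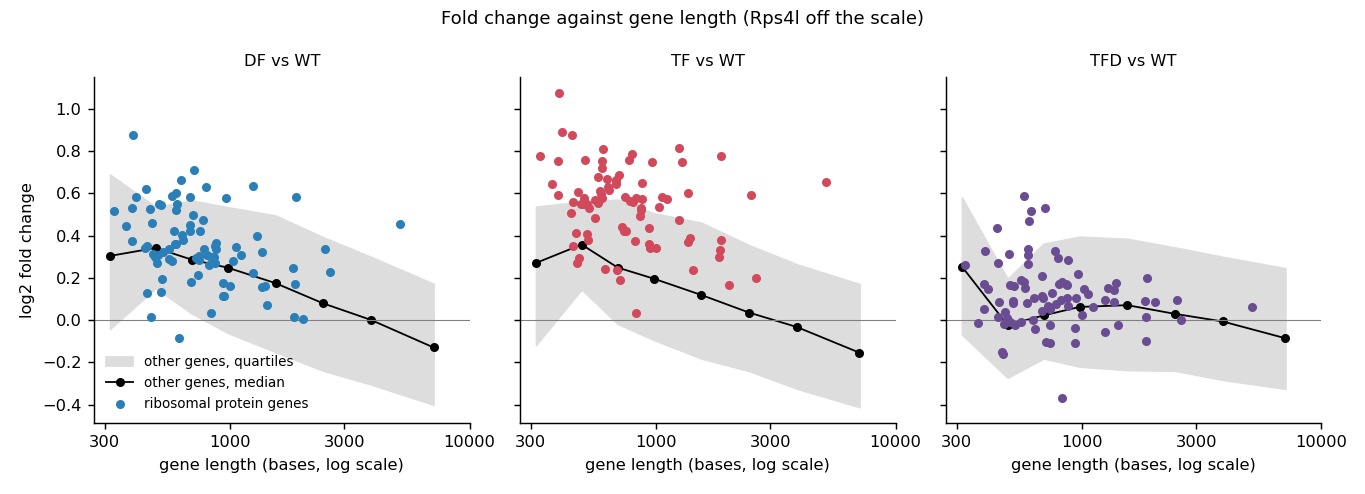
Log2 fold change (vertical axis) against gene length in bases (log scale) in DF, TF and TFD relative to WT. Colored points are the ribosomal protein genes without Rps4l; the black line and grey band are the median and quartiles of the other genes in length bands. The line falls with length in DF and TF, and the members lie above it in TF more than in DF.

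Levels were compared between genes per kilobase of the deposited length. The highest were Rps12, Rplp1, Rpl32, Rps14 and Rps4x, between 1286 and 1968 CPM per kilobase, and 65 of the 83 lay between 200 and 1500, with a median of 628. Rpl30, Rps4l, Rpl34, Rpl37rt and Rps27 were lowest, at between 1.9 and 7.1, although the proteins of Rpl30, Rpl34 and Rps27 are present in each ribosome. The authors counted unique alignments, and many ribosomal protein genes have processed copies. Whether such copies account for the lowest levels was not tested. In GENCODE vM21, 81 of the 83 matched a coding transcript, and a median of 64.1% of their 50-base windows occurred in no other gene's transcript. For 28 genes under 50% of the windows were unique. Rpl35 was the extreme at 4.9% and Rpl7a had 18.8%, with 121 pseudogenes sharing a window. Across the 81 genes the level per kilobase and the unique share had a Spearman correlation of -0.09, given as a description across genes that share libraries. Rpl30 had 27.2% unique windows, Rps27 53.8% and Rpl34 89.0%, with 16, 8 and 9 pseudogenes sharing a window in this order. Fold changes of genes with shared windows are uncertain to that extent, since reads may have been lost to or gained from copies. The 6 members under 10 mean CPM included the Rps4l call, and without them 35 were called higher in DF, 65 in TF and 3 in TFD, with 0 lower.

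**Figure D5:**
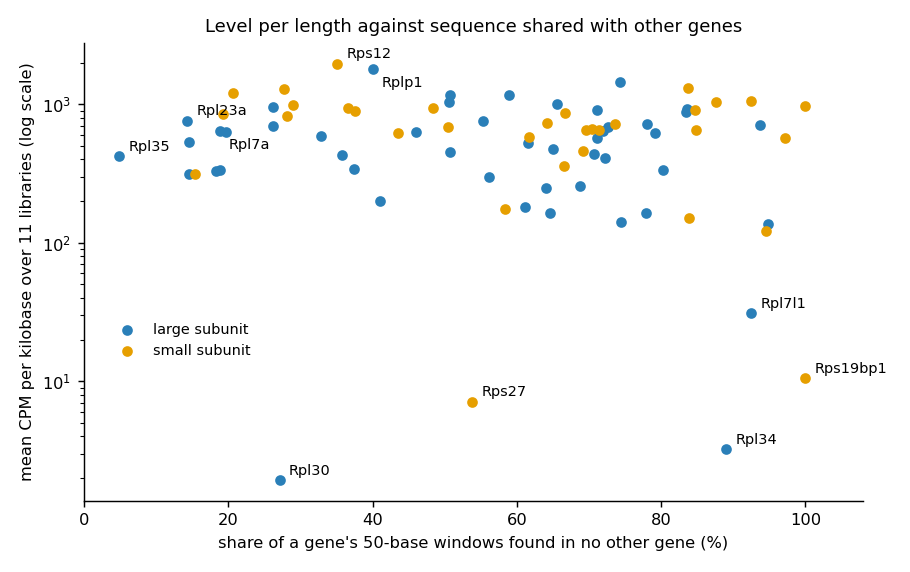
Mean CPM per kilobase over the 11 libraries (log scale) against the share of a gene's 50-base windows found in no other gene (%), for 81 genes. Most genes lie between 200 and 1500 at any share; Rpl30, Rpl34, Rps27 and Rps19bp1 lie far below.

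Ribosomal proteins that the symbol rule missed were also called higher in TF. Fau, made as a fusion with a ubiquitin-like protein, and Gnb2l1, the scaffold protein Rack1, rose in TF by 0.48 ± 0.11 and 0.55 ± 0.14 (edgeR adjusted p = 0.00396 and 0.00881). In DF they stood at 0.31 ± 0.11 and 0.34 ± 0.14 (edgeR adjusted p = 0.035 and 0.0697), so that Fau was called and Gnb2l1 was not, and neither was called in TFD. Translation factors and other proteins known for TOP mRNAs, a list that holds both genes, gave 6 higher and 1 lower of 24 in DF, 12 and 1 in TF, and 1 and 1 in TFD. Eef1a1, the elongation factor that brings tRNA, was at 0.33 ± 0.14 in DF and rose by 0.52 ± 0.14 in TF (edgeR adjusted p = 0.0804 and 0.0128), and Pabpc4, a poly(A)-binding protein, fell in each genotype, at -1.20 ± 0.16, -0.79 ± 0.16 and -0.94 ± 0.19 (adjusted p = 0.000146, 0.00275 and 0.00266).

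Other parts of ribosome production gave fewer higher calls. Over all genes, 21.0% were called higher and 16.6% lower in DF, 19.0% and 15.6% in TF, and 14.7% and 11.6% in TFD. Each list below had a smaller share called higher than all genes in every genotype. The share called lower was also below that of all genes in DF and TFD. In TF it was above that of all genes only for the ribosomal RNA transcription genes and the mTORC1 and MYC regulators. Of 57 nucleolar and cytoplasmic assembly factors, 3 were called higher and 3 lower in DF, 1 and 6 in TF, and 0 and 2 in TFD, with medians of 0.01, -0.09 and -0.10. Ncl, nucleolin, fell by 0.57 in DF and 0.75 in TF on the log2 scale (SE 0.165 in each, edgeR adjusted p = 0.0168 and 0.004). Of 31 genes for transcription of ribosomal RNA, 3 were called higher and 4 lower in DF and 3 and 5 in TF, and 2 and 0 in TFD. Ubtf, which opens ribosomal DNA, fell by 0.40 in DF and 0.30 in TF (SE 0.10 in each, edgeR adjusted p = 0.00829 and 0.0338). Of 26 regulators around mTORC1 and MYC, 1 was called higher in DF and in TF, 4 lower in DF and 5 in TF, and 0 higher and 2 lower in TFD, with Mxd1, a MYC antagonist, at -0.72 ± 0.13 in DF and -1.46 ± 0.13 in TF (edgeR adjusted p = 0.00105 and 1.1e-05). Among these, Myc stood at -0.08 ± 0.16 and -0.23 ± 0.16 (adjusted p = 0.704 and 0.3). Mitochondrial ribosomal proteins, nuclear-encoded and also short, gave 10 higher calls of 77 in DF, 5 in TF and 2 in TFD, with medians of 0.19, 0.14 and -0.07.

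Cell markers moved with the genotypes too. The summed CPM of 13 B cell markers ranged from 630 to 796 in WT, 17.5 to 31.8 in DF, 30.1 to 132 in TF and 25.3 to 25.8 in TFD, and Pax5, Vpreb1, Igll1, Rag1 and Rag2 were at 0 in 1 to 3 mutant libraries each. Of the 12 tested, 12, 11 and 12 were called lower in the same order of mutants. The 13 erythroid markers summed to 2635 to 3324, 359 to 493, 757 to 2307 and 699 to 925 in the same order, with 13, 11 and 11 called lower, and the 10 monocyte markers to 2402 to 2738, 8474 to 9545, 6927 to 9264 and 8086 to 8781, with 9, 9 and 8 called higher. Neutrophil markers, 11 of 12 in the table, summed to 52681 to 66410 in WT, 59921 to 84533 in DF, 37641 to 48348 in TF and 23795 to 47569 in TFD, and 4 were called lower in TF and 2 in TFD. Dividing cell markers summed to 6233 to 6673 in WT and less in every mutant library, 4929 to 5806. The part of these differences in the ribosomal protein levels was not tested.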

How the data were processed

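Groups came from the sample labels, whose titles match the columns of the deposited table. The authors deposited raw counts per gene, made by aligning reads to mm10 with STAR, keeping unique alignments and counting on refGene genes with featureCounts, and filtered on CPM; tool versions and strandedness of counting are not given in the sources used here. They also deposited log2 CPM, and recomputing these in edgeR with 0.25 as the prior left differences of at most 5e-09, and gene length in bases.

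From the counts, genes over 0.5 CPM in more than 3 libraries were kept (12175 tested, 24 removed). Tests used R 4.3.3 with edgeR 4.0.16, TMM factors (0.924 to 1.043), the quasi-likelihood F test with a mean for each genotype and Benjamini-Hochberg adjustment over all genes. SE was derived from the F statistic. Paralog ratios used a pseudocount of 0.5 counts and exact permutation tests in scipy 1.17.1. Other tools were Python 3.11.15, numpy 2.4.6, pandas 2.3.3 and matplotlib 3.10.9. Alternatives were DESeq2 1.42.0, limma 3.58.1 on log2(CPM + 1), RLE factors, library totals, TMM factors without the members, no filter, a length loess (span 0.3), only the 2 groups compared, an Xist term, the replicate block and each library left out. A loess without the members, only libraries under 10000 Xist counts, omission of members under 10 CPM and windows of 36 or 75 bases were added after the data were seen. The procedures were tested on simulated data. Counting precision is high at these totals, and the spread between 2 or 3 libraries limits the results.

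The members and gene lists were chosen with earlier results of these data known. Genes named are, per comparison, the members at the 2 ends of the log2 fold change among those called (5 a side), the 5 highest and 5 lowest per kilobase, the listed groups (stalk, Rpl5 with Rpl11, red cell failure, X-linked, paralogs, fusion partners), Rpsa, Rps6, Rps27a, Rps19bp1 and extremes of other lists. Rpl29, Rps16, Rpl4, Rps2, Rps3a1, Rps15a, Eef1a1 and Myc, and the promoters printed, were chosen after their values were seen. Promoter sequences are from RefSeq (GRCm38.p6), gene positions from the deposited count table (mm10) and the transcripts for unique windows from GENCODE vM21. Results of some single genes that the rule names are not reported here.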

Additional observations from a re-analysis of the deposited data

Results flagged for a closer look

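Rpl7 and Rplp1 were the members named here in which every TF library lay above the WT mean and every TFD library below it. For Rpl7, a large subunit protein, the TF mean was 0.36 above WT and the TFD mean 0.10 below it, a difference of 0.46 on the log2 scale. For Rplp1, a stalk protein, the values were 0.28 above and 0.15 below, a difference of 0.43. The direct comparison of TF with TFD gave edgeR adjusted p = 0.297 for Rpl7 and 0.406 for Rplp1, so neither difference passed the test.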

How the results depend on the processing

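Members called higher in DF relative to WT numbered 35, and 23 with RLE factors, 17 with library totals, 13 with the length loess and 14 with the loess drawn without the members; in TF they numbered 65, and 36 and 41 with these loess fits. In TFD the 3 calls became 0 in a fit of only the WT and TFD groups (12.2% of all genes), and 1 gene was called lower with DESeq2 and with the Xist term. In libraries under 10000 Xist counts, where TFD replicate 1 was alone in its group, the members' median in TFD was 0.30. DESeq2 called 4 members lower in DF relative to TF (6.1% of all genes) and 31 higher in TF relative to TFD (0.862% of all genes). A fit of only the 2 groups called 1 higher in DF relative to TFD (0.214% of all genes). Without members under 10 mean CPM, 0 were called lower in DF and in TF. Rpl41 in TF turned to -0.047 with the loess and -0.0025 with the loess drawn without the members. Without the 100 other genes with the most counts, the share in TF exceeded WT by 1.92 percentage points. The cause of these changes was not tested.

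With each library left out, members called higher ranged from 9 to 45 in DF, 50 to 67 in TF and 0 to 7 in TFD, and members called lower from 0 to 1 in DF and in TFD. Against TFD, higher calls ranged from 0 to 8 in DF and 0 to 14 in TF. The median of members in TFD ranged from -0.042 to 0.215, and the difference in share between TFD and WT from -0.0068 to 0.580 percentage points. The ratio of Rpl7l1 to Rpl7 ranged from -0.044 to 0.079 and that of Rps27l to Rps27 from -0.546 to 0.00061. With the replicate numbers as a block, 34 members were called higher in DF, 63 in TF and 2 in TFD. Replicate numbers were not taken as a pairing, since 5 of 15 pairs of libraries with the same number had deviations that correlated over 0.1, and 9 of 30 with other numbers. The 23 calls of single named members gave 529 values under the alternatives, of which 398 were still called, 129 were not (75 in DF, 40 in TF and 14 in TFD) and 2 were reversed. With 2 or 3 libraries per genotype, differences smaller than the spread between libraries could not be detected.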
